A study of Mus musculus with 4 samples.

Results

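Ly6c2-high inflammatory monocytes are the recruited phagocytes of a tumor that still resemble monocytes of the blood, and 2455 of the 28418 analysed CD45+ cells of EO771 mammary tumors met the rule that defined them here. EO771 is a mouse mammary tumor line. A cell was taken as a monocyte when its uncorrected UMIs (unique molecular identifiers, 1 per captured transcript), scaled to 10000 UMIs of the cell, held at least 10 of Ly6c2 and at least 20 of Lyz2, the lysozyme gene of myeloid cells. It also had to hold fewer than 20 of C1qa, C1qb and C1qc together, fewer than 20 of the MHC class II gene H2-Ab1, and fewer than 300 of the neutrophil genes S100a8 and S100a9 together. Cells with a UMI of Siglech (plasmacytoid dendritic cells) or of Cd3d, Cd3e or Cd3g (T cells), and cells with at least 1 UMI of each of the cell cycle genes Mki67 and Top2a, were left out. The cells were thus chosen by measured levels of these genes, from the same UMIs that are described below, so levels against other cells are given as descriptions without a test.

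The tumors grew to 1.5 cm3 in 4 female mice, and viable CD45+ leukocytes were sorted from them. All mice carried a loxP-flanked Csf1r gene. The 2 Csf1rfl/fl mice had no Cre, and the 2 Lyve1CreCsf1rfl/fl mice also carried a Cre recombinase driven by Lyve1, which deletes Csf1r in cells that express Lyve1 or descend from such cells, lymphatic endothelium included. A Csf1rfl/fl and a Lyve1CreCsf1rfl/fl tumor were pooled in either of the 2 Chromium runs and separated afterwards by hashtag antibodies. The age of the mice at harvest is not used here. Values of the 4 tumors are listed throughout in the order Csf1rfl/fl run 1, Csf1rfl/fl run 2, Lyve1CreCsf1rfl/fl run 1 and Lyve1CreCsf1rfl/fl run 2.

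Classical monocytes leave the bone marrow through CCR2, the receptor of the chemokine CCL2, circulate with high surface LY6C, and enter inflamed tissue and tumors. There they can become macrophages or antigen-presenting cells, and as they do so they lose LY6C and gain complement C1q, MHC class II or both. CSF1R, the receptor of the growth factors CSF1 and IL-34, supports the survival and differentiation of this lineage.

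The monocytes of the 4 tumors numbered 826, 745, 482 and 402 and held 4443442, 3903612, 2373493 and 2155112 UMIs. A monocyte had a median of 4843.5, 4924, 4640.5 and 5057 UMIs. Cells in which the higher hashtag count was less than 3 times the lower made up 6.54% and 4.98% of the monocytes in run 1 and 0.269% and 0.249% in run 2, and Scrublet called 10.9%, 5.91%, 11.6% and 7.21% of the monocytes doublets. Among all analysed cells, 60 barcode sequences occurred in both runs.

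The label of inflammatory monocyte was checked against the 4 of its 6 marker genes that the rule did not use. Chil3, a chitinase-like secreted protein of myeloid precursors and monocytes, was at 4.73, 8.99, 6.65 and 11.1 UMIs per 10000 in monocytes, against 0.556 to 0.729 in all other analysed cells of a tumor. Vcan, the matrix proteoglycan versican, was at 3.64, 7.67, 4.10 and 6.29, against 0.520 to 1.04 in the other cells. Fn1, which encodes fibronectin, was at 1.66, 5.10, 2.28 and 5.19, against 0.189 to 0.356. All of these markers, and Ccr2 at 3.16, 6.45, 3.98 and 5.86 against 1.17 to 2.22, were higher in monocytes than in the other cells of every tumor. This sets monocytes against all other analysed cells, and not against the cells most like them. Ccr2 was not particular to monocytes, with a UMI in 60.4% to 80.7% of them and in 24.5% to 33.9% of T cells. Ly6c2 itself lay at 30.6, 34.1, 32.8 and 34.0 UMIs per 10000 and Lyz2 at 79.2, 70.6, 88.5 and 81.5, as the rule requires. Ly6c2, on chromosome 15 of mm10 from 75108158 to 75111970, has a near-identical neighbour, Ly6c1, on the same chromosome from 75044018 to 75048830, so the division of reads between both genes is uncertain.

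Markers of lymphocytes and of tumor or stromal cells were low in the monocytes, and those of other myeloid cells were present at higher levels. The 5 genes of the NK cell list summed to 0.979, 0.387, 1.64 and 2.02 UMIs per 10000, the 5 of the B cell list to 0.371, 0.617, 0.371 and 1.97, and the 6 of the tumor and stromal list to at most 0.0338, with Krt18 at 0. The members of the C1q macrophage list that the rule did not use summed to 3.28, 2.65, 2.95 and 2.13, and those of the neutrophil list to 3.74, 4.08, 3.99 and 2.97. The plasmacytoid list summed to between 9.67 and 12.4 UMIs per 10000, of which Bst2, also an interferon-stimulated gene, made up 8.68 to 11.8. The conventional dendritic cell list summed to 15.8, 15.3, 17.3 and 16.4, of which Cd74 made up 12.6, 12.3, 13.8 and 12.8. The 8 genes of the nonclassical monocyte list summed to 6.44, 6.72, 5.31 and 7.73.

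The cells just inside and just outside each threshold show how the rule cuts a continuum. Cells with 8 to 10 UMIs of Ly6c2 per 10000 that met all other criteria (130 cells, left out) had Chil3 at 5.18 and Vcan at 4.86 UMIs per 10000, and those with 10 to 12 (126 cells, taken in) had 6.17 and 5.18. At the lower limit for Lyz2, the 85 cells just outside had Chil3 at 2.08 and the 96 just inside at 3.57. At the upper limit for H2-Ab1, the 74 cells with 16 to 20 had Chil3 at 3.52 and the 41 cells with 20 to 24 had it at 1.995. At the limit for C1q, Chil3 was at 4.56 in the 26 cells inside and at 2.99 in the 15 outside, and at that for S100a8 and S100a9 it was at 2.33 in the 19 cells inside and at 6.57 in the 32 outside. Only the last limit kept out cells with more Chil3 than those it let in. Ccr2 and Fn1 did not follow Chil3 at each limit. Outside the limit for C1q, Ccr2 was at 4.09 and Fn1 at 1.30, against 3.10 and 0.852 inside. Outside that for H2-Ab1 they were at 3.55 and 0.519, against 2.93 and 0.378 inside. Vcan was higher inside at both of these limits (3.29 and 2.79, against 2.29 and 2.71 outside).

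Genes were ranked by the lowest ratio over the 4 tumors of their level in monocytes to that in all other analysed cells, among genes with at least 1 UMI per 10000 in the monocytes of every tumor. Chil3 led this order, at 8.51 to 16.1 times the level of the other cells, followed among genes outside the rule by Vcan (6.76 to 9.08 times), the transglutaminase gene F13a1 (6.18 to 12.002 times) and Fn1 (5.54 to 19.0 times). Next came Gpr141, Gm9733, the coagulation factor X gene F10, Klra2, Plac8, Mgst1 and Ly6i. Plac8 was the most abundant of these, at 63.4, 55.0, 70.8 and 58.8 UMIs per 10000 in monocytes, 3.90 to 5.54 times the level in other cells. The 25 leading genes also held haptoglobin (Hp, 3.67 to 8.66 times), complement factor B (Cfb), C3, the scavenger receptor gene Msr1 and the chemokine gene Cxcl10 (3.04 to 4.35 times). Csf1r was the last of the 25, at 3.01 to 4.81 times the level of the other cells. Hp was at a like level in neutrophils, at 3.50 to 4.18 UMIs per 10000 against 3.48 to 4.77 in monocytes, whereas Mgst1 was at 1.03, 1.23, 1.59 and 1.52 in monocytes and at 0.0703 to 0.181 in macrophages with C1q. The UMIs came from the 3' ends of transcripts, so they do not scale with transcript length.

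**Figure D1:**
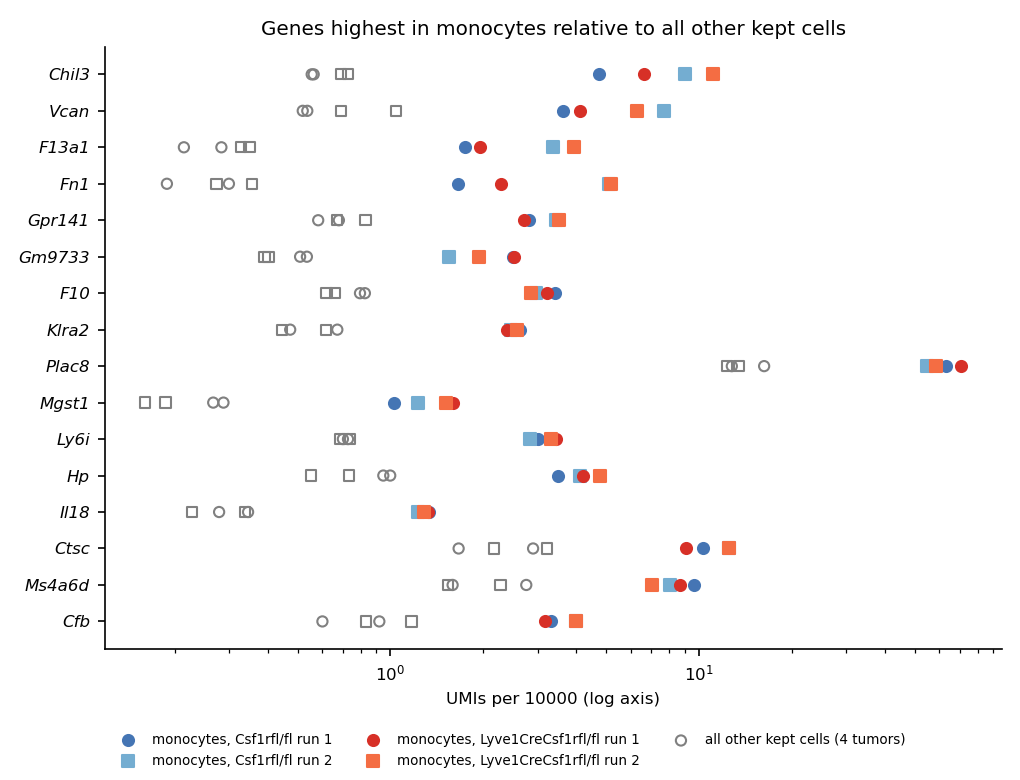
Levels of the 16 leading genes outside the rule, in UMIs per 10000 on a log axis, in the monocytes of each tumor (filled, 1 point per tumor) and in all other analysed cells of the same tumors (open grey), with circles for run 1 and squares for run 2. The monocytes of each tumor lie to the right of its other cells for each gene, by 8.51 to 16.1 times for Chil3.

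Against all other analysed cells, the monocytes were rich in RNA of interferon-stimulated genes, which type I and type II interferons induce through STAT transcription factors. The sum of these genes was not set against the cells most like monocytes. The rule did not use these genes, but it used Ly6c2, which rose with them among monocytes. Its log2 ratios were 0.63 to 0.91 between monocytes with many and with few such UMIs. How far the choice by Ly6c2 raised these levels was not tested. Of the 50 genes of this list, 49 were in the table, and their UMIs summed to 401, 373, 385 and 348 per 10000 in monocytes and to 208, 200, 182 and 163 in all other analysed cells. Of the 43 members with at least 1 UMI per 10000 in the monocytes of every tumor, 42 were higher in monocytes than in the other cells in every tumor. Over all 1223 genes with that level, 762 (62.3%) were. Ifi27l2a was at 115, 72.8, 105 and 79.5 UMIs per 10000, and Ifitm3, which restricts the entry of viruses, at 75.9, 55.6, 77.5 and 55.1. The ubiquitin-like gene Isg15 was at 25.9, 30.4, 23.5 and 24.2, and Irf7, a transcription factor that amplifies the interferon response, at 16.9, 15.05, 13.3 and 13.4. Cxcl10, which attracts CXCR3+ lymphocytes, was at 15.6, 18.8, 19.4 and 15.9, against 6.35 to 13.4 in macrophages with C1q and 2.16 to 2.82 in T cells. An Isg15 UMI was found in 92.04% to 95.04% of the monocytes and in 51.3% to 60.7% of the T cells.

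The promoters of 4 of these genes are shown because they carry a sequence known from the response elements of interferon-stimulated genes. Each is the 250 bases before the transcription start in RefSeq (GRCm38.p6), written 5' to 3' on the strand of the gene. Capitals mark every match to GAAANNGAAA or to its reverse complement TTTCNNTTTC, and matches in Isg15 overlap. Cxcl10 lies on the minus strand (chr5:92348890-92349139), as do Isg15 (chr4:156200819-156201068) and Rsad2 (chr12:26456453-26456702), and Ifit1 on the plus strand (chr19:34640639-34640888).
Cxcl10: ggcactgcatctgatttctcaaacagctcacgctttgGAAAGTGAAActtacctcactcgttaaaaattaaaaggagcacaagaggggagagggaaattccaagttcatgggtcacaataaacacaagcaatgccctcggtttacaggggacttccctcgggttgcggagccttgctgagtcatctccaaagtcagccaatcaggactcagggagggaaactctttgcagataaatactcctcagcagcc
Isg15: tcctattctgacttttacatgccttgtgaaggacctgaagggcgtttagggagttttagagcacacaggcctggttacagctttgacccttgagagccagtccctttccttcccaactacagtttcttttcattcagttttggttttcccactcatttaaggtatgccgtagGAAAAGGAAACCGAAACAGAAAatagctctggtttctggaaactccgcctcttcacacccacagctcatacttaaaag
Rsad2: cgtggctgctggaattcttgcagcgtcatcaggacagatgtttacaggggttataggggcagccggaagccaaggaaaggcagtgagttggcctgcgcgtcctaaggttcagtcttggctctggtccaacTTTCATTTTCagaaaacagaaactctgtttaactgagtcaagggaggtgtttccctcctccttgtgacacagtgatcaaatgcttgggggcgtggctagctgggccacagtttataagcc
Ifit1: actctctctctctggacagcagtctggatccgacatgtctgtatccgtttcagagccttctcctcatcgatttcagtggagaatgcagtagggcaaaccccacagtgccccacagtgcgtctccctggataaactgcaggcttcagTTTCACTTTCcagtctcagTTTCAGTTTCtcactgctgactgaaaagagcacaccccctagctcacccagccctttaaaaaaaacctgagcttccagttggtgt

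Of the 39 genes of the interferon-stimulated list with a promoter entry in RefSeq, 20 (51.3%) held a match in this window on either strand, against 936 of all 27025 genes with a promoter entry (3.46%) and 978 of all 32851 promoters (2.98%). The promoters of Ifitm3 and Irf7 held no match. The match in Cxcl10 began 213 bases before the start, that in Rsad2 120 bases before, those in Ifit1 104 and 85 bases before, and the 3 in Isg15 78, 72 and 66 bases before. Rsad2, whose product viperin interferes with viral replication, and Ifit1, which binds foreign RNA, had mean levels of 6.06 and 4.08 UMIs per 10000 in monocytes. A match is a description of these letters and not a measured binding site.

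Monocytes of a single tumor differed widely in interferon-stimulated UMIs. After each cell was thinned to 2000 UMIs, which left out 24, 16, 20 and 15 shallower cells, a monocyte had a median of 395, 365, 362.5 and 340 interferon-stimulated UMIs per 10000. The 10th percentile of the cells was 225, 154, 195 and 160, and the 90th percentile 619.5, 640, 669.5 and 618. T cells had medians of 155, 120, 125 and 120 at the same depth, so the monocyte medians were all above those of the T cells. The median was lower in the Lyve1CreCsf1rfl/fl tumor of both runs, with differences of -32.5 and -25 UMIs per 10000. The exact permutation test, two-sided, gave p = 0.333, the smallest p that 2 tumors against 2 allow. Without thinning, the medians were 392, 365, 364 and 336.

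**Figure D2:**
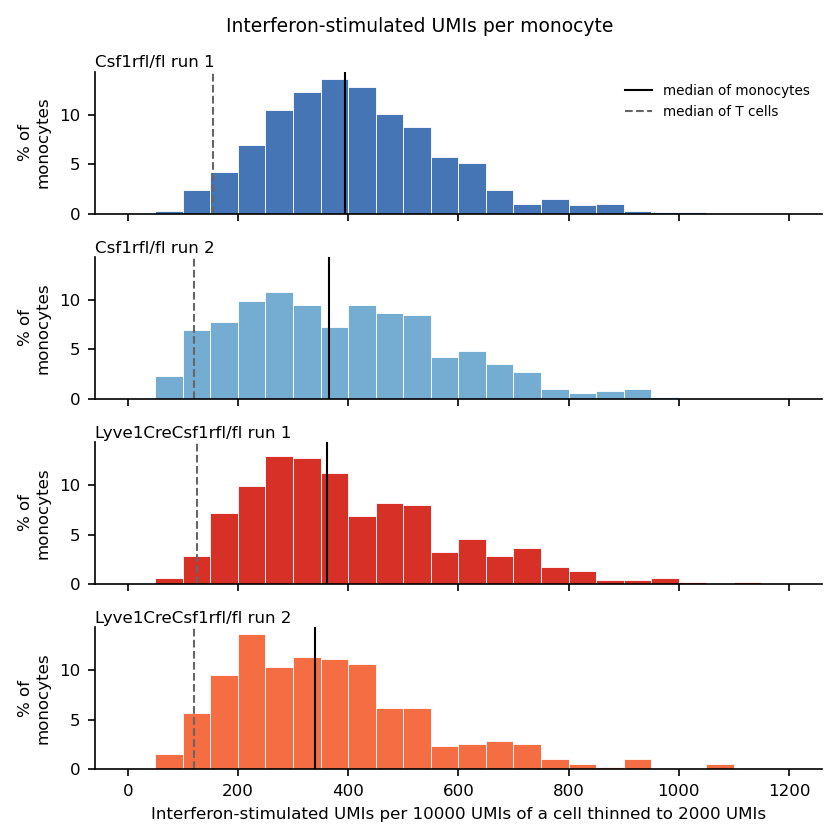
Share of monocytes (y axis, percent) by interferon-stimulated UMIs per 10000 after thinning to 2000 UMIs (x axis), 1 panel per tumor. The solid line is the median of monocytes (395, 365, 362.5 and 340) and the dashed line that of T cells (155, 120, 125 and 120), and in every tumor the monocytes spread from below the T cell median to far above their own median.

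Within each tumor, the monocytes were split into 3 equal sets by interferon-stimulated UMIs, and the upper set was compared with the lower, in thinned cells (267, 243, 154 and 129 cells in either set of a tumor). Outside the list used for the split, 2573 genes had a mean level of at least 0.5 UMIs per 10000, and 168 of them were at least 1.5 times higher and 79 at least 1.5 times lower in the upper set in all 4 tumors. The higher genes included relatives of list members that the list lacks, such as Ifit1bl1, Ifi208 and Gbp4, by at least 2.96, 2.04 and 1.41 on the log2 scale. A rise of such genes follows from the way the cells were split. The genes named here were chosen after their values were seen, and the ratios carry no test because the split was made on UMIs of the same cells. Cd40, a costimulatory receptor, was at 1.44, 2.06, 1.79 and 2.21 UMIs per 10000 in the upper set and at 0.225, 0.226, 0.455 and 0.349 in the lower set. Cxcl9, the interferon-gamma-induced CXCR3 ligand, was at 4.33, 12.4, 4.22 and 7.40 in the upper and at 1.16, 0.700, 0.292 and 0.736 in the lower set. Serpina3g, Calhm6 and AW112010 were higher in the upper set by at least 1.54, 1.90 and 1.59 on the log2 scale in every tumor. Fcgr1, the high-affinity IgG receptor gene, and Cfb followed the same direction, by at least 1.22 and 1.19. Ly6c2 was higher in the upper set by 0.63 to 0.91.

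The genes that were lower in the upper set included the trafficking receptor and several leading genes of the monocytes. Ccr2 was at 1.85, 4.05, 2.66 and 3.60 UMIs per 10000 in the upper set and at 4.63, 8.29, 5.55 and 7.36 in the lower set. Fn1 was at 0.861, 1.77, 1.46 and 2.64 against 2.81, 8.46, 2.89 and 8.60. F13a1 was at 0.880, 1.36, 1.20 and 1.01 against 3.20, 6.05, 2.34 and 6.78. In each of these genes the lower set was higher than the upper set of its tumor by at least 0.91 on the log2 scale. The granule protease gene Prtn3, Crip1, Mgst1 and the chromatin genes Hmgb2 and H2afz were lower in the upper set as well, with log2 ratios of -2.01 to -1.45 for Prtn3 and -1.66 to -0.99 for Hmgb2. Chil3 and Vcan were not lower by 1.5 times in every tumor, with log2 ratios of -0.78 to -0.14 and -0.58 to -0.06. Csf1r had log2 ratios of -0.26 to 0.41, without a common direction.

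**Figure D3:**
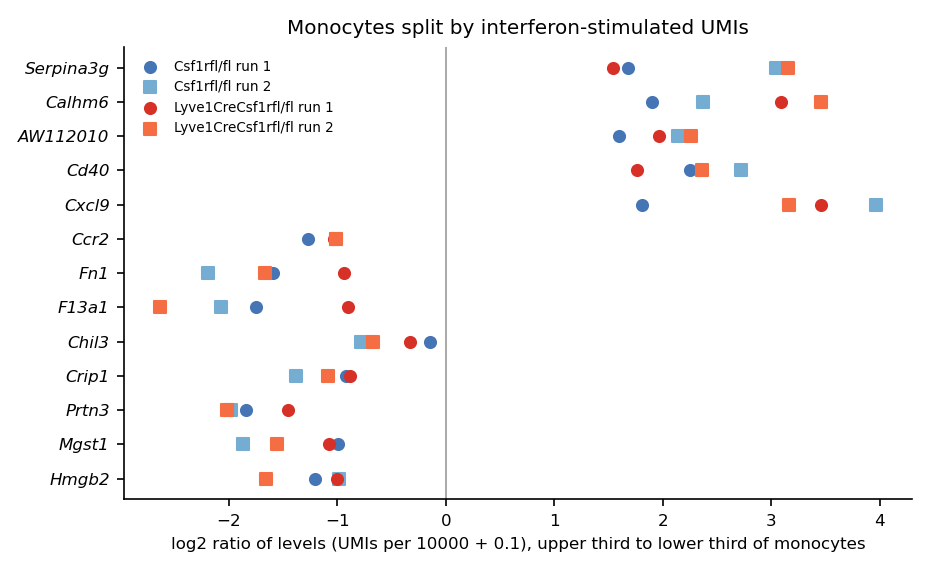
Log2 ratio of levels (UMIs per 10000 plus 0.1) between the upper and the lower of 3 equal sets of monocytes by interferon-stimulated UMIs, 1 point per tumor (circles run 1, squares run 2). Cd40 and Cxcl9 lie right of 0, at 1.77 or more, and Ccr2, Fn1 and F13a1 lie left of 0, at -0.91 or less, in all 4 tumors, while Chil3 lies between -0.78 and -0.14.

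The monocytes were also split by whether a Chil3 UMI was found. At 2000 UMIs per cell, 39.7%, 51.2%, 48.1% and 51.4% of the monocytes had a Chil3 UMI, with exact 95% binomial intervals from 36.2% to 43.1%, 47.5% to 54.9%, 43.4% to 52.7% and 46.3% to 56.5%. The intervals cover counting error only. T cells, which should lack Chil3, had it in 1.48%, 2.10%, 0.988% and 1.57% at the same depth. Without thinning, the shares were 52.2%, 61.9%, 57.9% and 60.4% of monocytes. The cells without a Chil3 UMI at 2000 UMIs thus included some that had such a UMI at full depth. They are not a set of cells that lack Chil3 RNA. The thinned shares of the genotypes overlapped (exact permutation test, two-sided, p = 0.667). Against cells without a Chil3 UMI, 8 of 2620 genes were at least 1.5 times higher in all 4 tumors and 9 at least 1.5 times lower. Among genes chosen after their values were seen, Smpdl3a was higher by at least 0.95 on the log2 scale, and Lcn2, which encodes the siderophore-binding protein lipocalin 2, by at least 1.16. Hp was at 5.22, 5.43, 5.18 and 6.33 UMIs per 10000 with a Chil3 UMI and at 2.56, 3.01, 2.90 and 3.24 without, and Mgst1 was higher by at least 0.95. Cd74, the MHC class II invariant chain gene, was at 8.41, 8.69, 8.18 and 9.77 with Chil3 and at 15.1, 16.9, 18.7 and 18.1 without. Ccl12 and Ms4a7 were lower with Chil3, with log2 ratios of -1.31 to -0.83 and -1.30 to -0.60. Ly6c2 differed little between both sets, with log2 ratios of -0.13 to -0.04.

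The trafficking receptors of the monocytes, beside Ccr2, included the product of the hyaluronan receptor gene Cd44, at 2.64, 5.11, 3.12 and 4.59 UMIs per 10000. Among growth factor receptors, Csf2ra, a chain of the receptor for GM-CSF, was at 2.16, 2.26, 1.96 and 1.91 and Csf3r, the receptor of G-CSF, at 1.24, 1.44, 1.01 and 1.43, against 6.72 to 12.6 in neutrophils. Of the 17 matrix and hyaluronan genes at 1 UMI per 10000 or more, 12 were higher in monocytes than in the other cells in every tumor. Over all genes at that level 62.3% were, a share not far from that of the list. Tgfbi, an adhesive matrix protein, was at 12.97, 13.8, 11.7 and 11.4. The cathepsin genes Ctss and Ctsb, which encode lysosomal proteases, were at 15.4 to 17.6 and 10.2 to 12.4 in monocytes and higher in macrophages with C1q, at 20.3 to 23.95 and 21.5 to 31.3. Of the oxidative phosphorylation genes, 51 of 60 were higher in monocytes than in the other cells, while of the glycolysis and hypoxia genes 7 of 13 were, against 62.3% of all genes at that level. Il1b, the interleukin-1 beta gene, was at 11.7, 14.9, 14.0 and 9.75 in monocytes and at 86.4 to 143 in neutrophils. Spi1, the gene of the myeloid transcription factor PU.1, was at 6.65, 6.06, 6.20 and 5.87.

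The run moved many genes of the monocytes. In a fit with genotype and run, 1131 of 9251 genes (12.2%) differed between runs at an adjusted p under 0.05 (quasi-likelihood test of edgeR, Benjamini-Hochberg adjustment). Fn1 was 1.22 higher on the log2 scale in run 2 (edgeR adjusted p = 1.57e-06), and Chil3, Vcan and Ccr2 were higher by 0.64, 0.66 and 0.61. For all 4 of these genes both tumors of run 2 lay above both tumors of run 1. Ifi27l2a and Ifitm3 changed by -0.72 and -0.66 in run 2, and Fcer1g and Tyrobp, the signalling chains of Fc and myeloid receptors, by -0.75 and -0.63. Results with the run as a block are therefore given beside those without it.

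The share of monocytes among analysed cells was 9.59% and 9.57% in the Csf1rfl/fl tumors (826 of 8613 and 745 of 7786 cells) and 6.65% and 8.43% in the Lyve1CreCsf1rfl/fl tumors (482 of 7248 and 402 of 4771). The exact 95% binomial intervals were 8.98% to 10.2%, 8.92% to 10.2%, 6.09% to 7.25% and 7.65% to 9.25%. Both Lyve1CreCsf1rfl/fl tumors lay below both Csf1rfl/fl tumors (means 7.54% ± 1.26 and 9.58% ± 0.0153, SD, n = 2, exact permutation test, two-sided, p = 0.333, the smallest p that this design allows). The difference depended on what the monocytes were counted against. Among the mononuclear phagocytes (monocytes, Ly6c2-high cells with H2-Ab1 and macrophages with C1q), monocytes made up 59.6%, 66.6%, 65.0% and 74.7%, which was higher in the Lyve1CreCsf1rfl/fl tumor of both runs (same exact test, p = 0.667). Among all analysed cells with fewer than 300 UMIs of S100a8 and S100a9 per 10000 they made up 11.9%, 12.3%, 8.95% and 9.93%. Both Lyve1CreCsf1rfl/fl tumors again lay below both Csf1rfl/fl tumors (same exact test, p = 0.333). Macrophages with at least 20 C1q UMIs per 10000 numbered 470, 260, 144 and 72 cells. Cell numbers per tumor were not analysed here, so a share can move with the other cells of its tumor. The authors had also removed lymphocyte clusters made up almost only of cells of the Lyve1CreCsf1rfl/fl tumor of run 2. The shares of that tumor among analysed cells, 8.43% and 9.93%, are therefore not shares of its sorted CD45+ cells.

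Cells that passed every criterion but held at least 20 UMIs of H2-Ab1 per 10000 numbered 89, 114, 115 and 64. They made up 9.73%, 13.3%, 19.3% and 13.7% of the Ly6c2-high cells with and without H2-Ab1 (exact permutation test, two-sided, p = 0.333). The share was higher in the Lyve1CreCsf1rfl/fl tumor by 9.54 percentage points in run 1 and by 0.463 in run 2.

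Between genotypes, the monocytes of Lyve1CreCsf1rfl/fl tumors had less RNA of the monocyte-attracting chemokines Ccl2, Ccl7 and Ccl12, of Csf1r and of the macrophage transcription factor gene Maf, and over all 4 tumors these differences passed edgeR's test with the run as a block and not without it. Without the block, edgeR called 0 of 9251 genes higher (0.00%) and 0 lower (0.00%), with 126 genes at an unadjusted p under 0.05, 63 in each direction, and DESeq2 also called 0, with 45 such genes. With the block, edgeR called 5 genes higher (0.0540%) and 10 lower (0.108%), with 488 genes at an unadjusted p under 0.05. The fit with the block leaves 1 residual degree of freedom and the fit without it 2, so both rest on estimates of the spread that are shared across genes. In summed UMIs, less RNA per cell and fewer cells with the RNA cannot be told apart.

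The 10 lower genes included 4 chemokine genes. Ccl2 (mm10 chromosome 11, 82035571 to 82037453), the main ligand of CCR2, was at 10.6 and 5.57 UMIs per 10000 in the Csf1rfl/fl monocytes of runs 1 and 2 and at 5.78 and 3.20 in the Lyve1CreCsf1rfl/fl monocytes. It was lower in both runs, although the Lyve1CreCsf1rfl/fl tumor of run 1 lay above the Csf1rfl/fl tumor of run 2. With the block, its log2 fold change was -0.84 (SE 0.086, edgeR adjusted p = 5.35e-05), and that without it -0.85 (SE 0.41, edgeR adjusted p = 0.9998). Ccl12 (82101845 to 82103400), another CCR2 ligand, was at 6.19 and 2.55 against 2.44 and 1.19, with a log2 fold change of -1.23 with the block (SE 0.11, edgeR adjusted p = 8.59e-06). Ccl7 (82045712 to 82047525), which binds CCR2 as well, was at 2.30 and 0.735 against 0.666 and 0.445, a change of -1.32 (SE 0.19, edgeR adjusted p = 0.00244). Ccl4 (83662584 to 83664683), a chemokine that attracts leukocytes, was at 16.1 and 10.2 against 11.0 and 6.74, a change of -0.57 (SE 0.075, edgeR adjusted p = 0.000856). Ccl2, Ccl12 and Ccl4 also differed between runs, by -1.09, -1.36 and -0.87 on the log2 scale in run 2, and each was lower in the Lyve1CreCsf1rfl/fl tumor inside both runs. The size of these changes rested on the tumors compared. Without the Csf1rfl/fl tumor of run 1, and without the block, the log2 fold changes of Ccl2, Ccl12, Ccl7 and Ccl4 were -0.19, -0.37, -0.30 and -0.089. Without the Lyve1CreCsf1rfl/fl tumor of run 2 they were -0.42, -0.78, -1.13 and -0.18. Without the Lyve1CreCsf1rfl/fl tumor of run 1 they were -1.48, -2.03, -1.92 and -1.10, and without the Csf1rfl/fl tumor of run 2 -1.30, -1.82, -2.12 and -0.92. Each of these fits has a lone tumor in a genotype, so only the sizes are given here. Over the chemokine list, 1 of 16 tested genes was higher and 4 were lower with the block, against 0.0540% and 0.108% of all genes, and the median log2 fold change without it was -0.33, against 0.0025 over all 9251 genes. It was -0.089 and -0.47 without the Csf1rfl/fl tumor of run 1 or 2, and -0.88 and -0.065 without the Lyve1CreCsf1rfl/fl tumor of run 1 or 2.

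T cells, which are not known as a main source of these CCR2 ligands, also held some of their UMIs, and those moved with the genotype. In T cells, Ccl2 was at 2.02, 0.806, 0.396 and 0.265 UMIs per 10000, Ccl7 at 0.9499, 0.397, 0.110 and 0.173, and Ccl12 at 1.32, 0.726, 0.177 and 0.290. After the T cell level of a tumor was taken from that of its monocytes, Ccl2 stood at 8.62, 4.76, 5.39 and 2.93, and its log2 ratios within runs were -0.68 and -0.70, compared with -0.87 and -0.79 before. For Ccl12 they were -1.10 and -1.02, compared with -1.33 and -1.07 before, and for Ccl7 -1.28 and -0.31, compared with -1.71 and -0.66. Each of these 3 remained below 0 in both runs, and the ratio of Ccl7 in run 2 was the closest to 0. Ccl4, which T cells are known to express themselves, was at 15.7, 5.54, 5.17 and 5.89 in T cells. That level was close to that of monocytes in the Csf1rfl/fl tumor of run 1 and the Lyve1CreCsf1rfl/fl tumor of run 2, so it is no background for Ccl4 and no ratio is given. Cells with at least 20 UMIs of Lyz2 or of C1q per 10000 were not among the T cells used here. The T cell level may therefore understate UMIs from other cells, and their part in the genotype difference was not tested.

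Macrophages with C1q had higher levels of the same chemokines, with Ccl2 at 16.4, 11.4, 8.36 and 9.35 UMIs per 10000, Ccl7 at 12.6, 9.51, 5.68 and 5.39 and Ccl12 at 16.7, 14.3, 9.45 and 9.63. With the block, 48 of 7811 genes (0.615%) differed between genotypes in the macrophages, and the 3 chemokine genes were lower there too (log2 fold changes -0.64, -0.996 and -0.70, edgeR adjusted p = 0.00706, 5.75e-06 and 0.0005). Without the block, edgeR called 0 genes in the macrophages, with 197 at an unadjusted p under 0.05. In the 2063 monocytes without any C1q UMI, Ccl2 was at 10.3, 4.88, 3.72 and 2.94. Its log2 fold change with the block was -1.11 (SE 0.12) and that of Ccl12 was -1.54 (SE 0.13), compared with -0.84 and -1.23 in all monocytes. Ccl7 missed the threshold in the monocytes without a C1q UMI (log2 fold change -1.67, SE 0.38, edgeR adjusted p = 0.0675) and with DESeq2 (adjusted p = 0.99997). The part of macrophage RNA in the levels of monocytes was not tested. Of 8 fits with the block, which varied the cells, the scaling, the filter or the tool, Ccl2 and Ccl12 passed in 8, Ccl4 and Maf in 7 (not with DESeq2, adjusted p = 0.129 and 0.0823), and Ccl7, Csf1r and C3ar1 in 6.

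Csf1r, the floxed gene itself, was at 2.503 and 2.43 UMIs per 10000 in the Csf1rfl/fl monocytes (1112 and 950 UMIs) and at 1.66 and 1.39 in the Lyve1CreCsf1rfl/fl monocytes (393 and 300 UMIs). It was thus lower in both Lyve1CreCsf1rfl/fl tumors than in both Csf1rfl/fl tumors, as were 10.2% of all genes. A Csf1r UMI was found in 70.8%, 62.7%, 54.1% and 47.8% of the monocytes, and in 4.08% to 9.91% of T cells. The log2 fold change was -0.69 without the block (SE 0.25, edgeR adjusted p = 0.9998) and -0.70 with it (SE 0.12, edgeR adjusted p = 0.0155), and within runs the log2 ratios were -0.58 and -0.78. After the T cell level of each tumor was taken off, they were -0.52 and -0.78. UMIs of the 3' end, summed per gene, do not show whether an allele was deleted. Without doublets the change was -0.68 with the block and missed the threshold (edgeR adjusted p = 0.0719), as it did with DESeq2 (adjusted p = 0.541). In macrophages with C1q, Csf1r was at 1.70, 2.28, 1.48 and 1.55 (log2 fold change with the block -0.37, SE 0.18, edgeR adjusted p = 0.773). The difference between both changes did not pass the test without the block (-0.33, SE 0.21, edgeR adjusted p = 0.848) or with it (-0.35, SE 0.18, edgeR adjusted p = 0.654).

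Lyve1 had 0 UMIs in 2455 monocytes, which allows a share of up to 0.122% of cells with a UMI, and T cells had 3, 0, 1 and 1 cells with one. Folr2, a gene of resident tissue macrophages, was found in 4, 4, 1 and 0 monocytes, at most 0.537% of a tumor's monocytes, against 0.151% to 0.548% of T cells. The Folr2 share of monocytes was above that of T cells in 2 of the 4 tumors, on 4 monocytes and 1 monocyte, and below it in the other two.

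**Figure D4:**
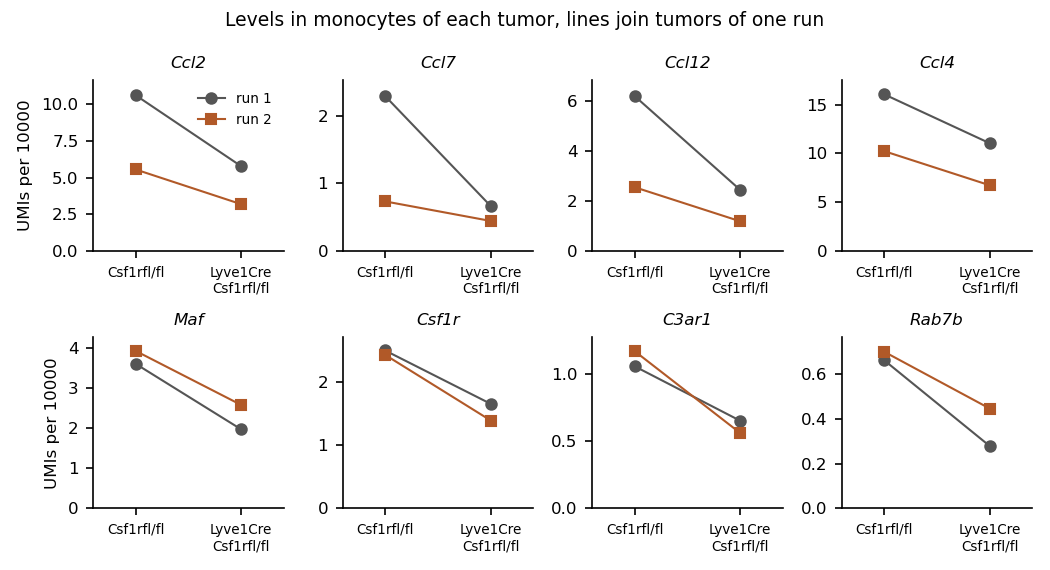
Levels (UMIs per 10000, axes from 0) of 8 genes that were lower in Lyve1CreCsf1rfl/fl monocytes with the run as a block, 1 point per tumor, with lines joining the tumors of a run. All lines fall, and for Ccl2, Ccl7, Ccl12 and Ccl4 the runs also differ in level, as for Ccl2 at 10.6 and 5.57 in the Csf1rfl/fl tumors.

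Many genes that mark the passage from monocyte to macrophage had lower values in the Lyve1CreCsf1rfl/fl monocytes, though few passed. Of the 27 genes of this list, 13 were lower in both Lyve1CreCsf1rfl/fl tumors than in both Csf1rfl/fl tumors, against 10.2% of all genes, and 1 was higher in both, against 10.1%. The list was chosen with earlier results of these data known, so this excess is no independent support. Macrophages with C1q, which numbered 470, 260, 144 and 72 cells, were also fewer in the Lyve1CreCsf1rfl/fl tumors. The part of their RNA in this count was not tested. The median log2 fold change of the list was -0.35. It was -0.18 without the Csf1rfl/fl tumor of run 1 and -0.53 without the Lyve1CreCsf1rfl/fl tumor of run 1, the ends of the range when 1 tumor was left out. With the block 2 of the 27 were lower, Maf and C3ar1, against 0.108% of all genes. Maf was at 3.60, 3.92, 1.96 and 2.57 UMIs per 10000, a change of -0.74 with the block (SE 0.11, edgeR adjusted p = 0.00253). C3ar1, the receptor of the complement fragment C3a, was at 1.06, 1.17, 0.653 and 0.561, a change of -0.87 (SE 0.15, edgeR adjusted p = 0.0183). For both genes the genotypes did not overlap. T cells, which are known to express Maf as well, held it at 2.33, 3.81, 3.12 and 2.93, above the monocytes in both Lyve1CreCsf1rfl/fl tumors, so no ratio above the T cell level could be given. C3ar1 was at 0.368, 0.319, 0.0882 and 0.176 in T cells, also lower in the Lyve1CreCsf1rfl/fl tumors. Above that level, its log2 ratio was -0.29 in run 1 and -1.15 in run 2. Hmox1, the heme-degrading enzyme, was at 3.27, 2.18, 2.14 and 1.55 and did not pass with the block (log2 fold change -0.55, edgeR adjusted p = 0.0653). Fabp5, a fatty acid carrier, did not share the direction, at 13.1, 6.10, 12.6 and 7.63. In the same cells, the C1q macrophage marker sum was 3.28 and 2.65 in Csf1rfl/fl and 2.95 and 2.13 in Lyve1CreCsf1rfl/fl monocytes. In monocytes without a C1q UMI, the change of Maf was -0.67 (SE 0.13, edgeR adjusted p = 0.0237) and that of C3ar1 -0.77 (SE 0.16, edgeR adjusted p = 0.0384). C3ar1 missed the threshold without doublets (-0.89, edgeR adjusted p = 0.0719) and with DESeq2 (adjusted p = 0.996).

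The remaining lower genes with the block were Rab7b, Nol4l and Hbb-bs. Rab7b, a regulator of endosomal traffic, was at 0.662, 0.699, 0.278 and 0.445 UMIs per 10000 (log2 fold change -0.93, SE 0.18, edgeR adjusted p = 0.0412), and above the T cell level its log2 ratios within runs were -1.02 and -0.79. Rab7b missed the threshold without doublets (edgeR adjusted p = 0.158), with RLE scaling (edgeR adjusted p = 0.0555) and with DESeq2 (adjusted p = 0.99997). Nol4l had 31, 50, 3 and 3 UMIs, in under 1% of the monocytes of each tumor, and missed the threshold without doublets (edgeR adjusted p = 0.0719), without NK cell marker UMIs (edgeR adjusted p = 0.0677) and with DESeq2 (adjusted p = 0.99997). Hbb-bs, a beta globin gene of red blood cells, was at 0.0270, 1.30, 0.00843 and 0.0882. Its 507 UMIs in the Csf1rfl/fl tumor of run 2 came from 0.403% of the monocytes, and without that tumor its log2 fold change was 0.67 in place of -3.75. Hbb-bs missed the threshold with DESeq2 (adjusted p = 0.99997). The red blood cell markers summed to 1.78 UMIs per 10000 in that tumor and to at most 0.190 in the others.

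MHC class II genes stayed low in the monocytes, in part by the rule. Of the 8 tested members that the rule did not use, 5 were higher in both Lyve1CreCsf1rfl/fl tumors than in both Csf1rfl/fl tumors, against 10.1% of all genes, and edgeR called 0 with or without the block (4 and 1 at an unadjusted p under 0.05), as did DESeq2. H2-Aa was at 1.98, 1.95, 2.53 and 2.71 UMIs per 10000 (log2 fold change with the block 0.41, SE 0.11, edgeR adjusted p = 0.315). The median over the 8 members was 0.34. In macrophages with C1q, H2-Aa was at 12.6, 15.2, 26.6 and 22.9 and rose with the block (0.84, SE 0.12, edgeR adjusted p = 1.80e-05). The rule caps H2-Ab1 in monocytes and not in macrophages, and it left out 9.73%, 13.3%, 19.3% and 13.7% of the cells that met its other criteria, so the changes of MHC class II genes in both cell types are not compared.

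In the other lists, few or no genes passed with the block, and counts of genes that did not overlap are read against the 10.1% of all genes that were higher in both Lyve1CreCsf1rfl/fl tumors than in both Csf1rfl/fl tumors and the 10.2% that were lower. The 49 interferon-stimulated genes had a median log2 fold change of -0.08, and 9 were lower and 0 higher in both Lyve1CreCsf1rfl/fl tumors than in both Csf1rfl/fl tumors. Of the 33 tested matrix and hyaluronan genes, 12 were lower in this way, a larger share than over all genes, and 0 higher (median -0.15), and none passed with the block. Of the 72 oxidative phosphorylation genes, 10 were higher and 1 lower (median 0.04), of the 23 MHC class I genes 0 and 1 (median -0.06), of the 27 glycolysis and hypoxia genes 4 and 2 (median 0.04) and of the 20 immediate early and stress genes 1 and 2 (median 0.05). Of the 27 cytokine genes, 2 were higher and 6 lower (median -0.13), and of the 26 pattern recognition genes 1 and 5 (median -0.05). Among the 18 growth factor receptors 1 was higher and 3 lower (median -0.01), with Csf1r passing with the block, and among the 20 recruitment receptors 0 and 3 (median 0.01), with C3ar1 passing. Of the 28 monocyte transcription factor genes 2 were higher and 1 lower (median 0.06), and of the 15 granule and neutrophil-like genes 1 and 3 (median -0.13). In the 11 lists without a call with the block, the MHC class II list included, 44 of 328 entries had an unadjusted p under 0.05 in edgeR with the block and 5 without it, and DESeq2 called 0. Over all 9251 genes, 488 had such a p with the block and 126 without it. Chil3, outside these lists, had a log2 fold change of 0.40 with the block (SE 0.085, edgeR adjusted p = 0.0896). It passed in 3 of 8 fits with the block, at a hashtag ratio of at least 3 (edgeR adjusted p = 0.0027), without NK cell marker UMIs (edgeR adjusted p = 0.0305) and without a filter (edgeR adjusted p = 0.00377). Without the block, its change was 0.047 and 0.80 without the Csf1rfl/fl tumor of run 1 or 2, and 0.61 and 0.078 without the Lyve1CreCsf1rfl/fl tumor of run 1 or 2.

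The 5 genes that were higher with the block are known from cytotoxic lymphocytes. Ccl5 was at 4.64, 3.59, 7.63 and 5.97 UMIs per 10000 (log2 fold change 0.73, SE 0.089, edgeR adjusted p = 0.000499). The granzyme genes Gzma, Gzmb and Gzmc, proteases of killer cell granules, were at 0.887, 0.282, 1.48 and 1.89, at 0.275, 0.133, 0.430 and 0.557, and at 0.0180, 0.0512, 0.775 and 0.121. Xcl1, which attracts dendritic cells, was at 0.0518, 0.0922, 0.135 and 0.538. These genes were higher in both Lyve1CreCsf1rfl/fl tumors than in both Csf1rfl/fl tumors, as were 10.1% of all genes. With DESeq2 and the block, Ccl5 passed (adjusted p = 0.00898). Xcl1 did not (DESeq2 adjusted p = 0.164), nor did Gzma, Gzmb and Gzmc (DESeq2 adjusted p = 0.99997 for each). Gzmb also missed the threshold with RLE scaling (edgeR adjusted p = 0.0555). All 5 were lower in monocytes than in T cells of the same tumor, in each of the 4 tumors, with Ccl5 in T cells at 20.9, 11.7, 14.4 and 11.04 and Gzma at 4.48, 1.56, 3.09 and 4.17. A Ccl5 UMI was found in 27.97%, 25.9%, 31.95% and 26.4% of the monocytes, and the other four in fewer. Gzma UMIs were found in 4.48%, 4.83%, 7.26% and 4.73% of the monocytes, and the 184 Gzmc UMIs of the Lyve1CreCsf1rfl/fl tumor of run 1 in 1.24%. The NK cell marker sum, which includes Gzma, moved with them, at 0.979 and 0.387 in Csf1rfl/fl and 1.64 and 2.02 in Lyve1CreCsf1rfl/fl monocytes. Without the 219 cells called doublets, Gzma was at 0.284, 0.188, 0.134 and 0.0679 and Xcl1 at 0.0558, 0.0365, 0 and 0.0523, neither of them higher in both Lyve1CreCsf1rfl/fl tumors, Ccl5 was at 3.67, 3.12, 6.87 and 3.39 (log2 fold change with the block 0.52, SE 0.15, edgeR adjusted p = 0.781), and edgeR called 0 genes higher, with 176 at an unadjusted p under 0.05 in that direction, and 7 lower with the block. Without the 152 monocytes that held a UMI of an NK cell marker, Ccl5 was at 3.94, 3.36, 6.77 and 3.64 (log2 fold change 0.45, edgeR adjusted p = 0.193), and 1 gene was higher, Chil3, and 14 lower, 9 of them among the 10 above.

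**Figure D5:**
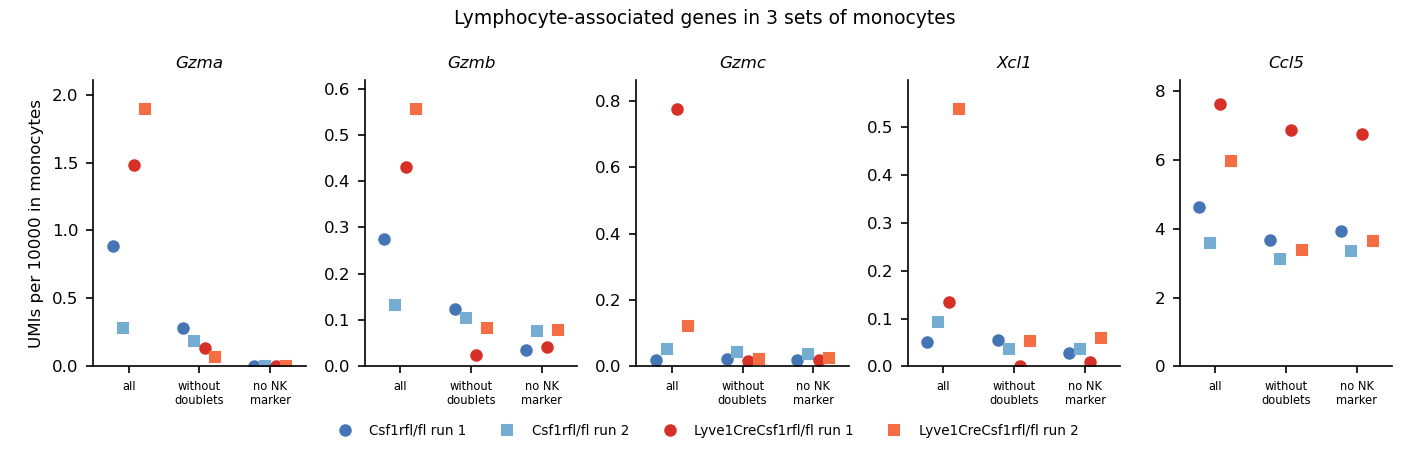
Levels (UMIs per 10000, axes from 0) of the 5 genes called higher, in all monocytes, in monocytes without doublet calls and in those without a UMI of an NK cell marker, 1 point per tumor. Gzma falls from up to 1.89 to at most 0.284 without doublets, while Ccl5 goes from 7.63 to 6.87 and 6.77 in the Lyve1CreCsf1rfl/fl tumor of run 1 and from 5.97 to 3.39 and 3.64 in that of run 2. Gzma is itself an NK cell marker here and is 0 by construction in the last set.

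Whether the difference between genotypes in monocytes was unlike that in macrophages with C1q was tested as an interaction, with the tumor as a block. Of 9558 genes, 3 passed (0.0314%), Gzmc, Xcl1 and Cxcl9. With the run allowed to differ between both cell types as a block, which leaves 1 residual degree of freedom, 81 passed (0.847%), these 3 among them. Cxcl9 was at 2.47, 5.55, 2.16 and 3.26 UMIs per 10000 in monocytes and at 1.44, 3.71, 3.33 and 4.57 in macrophages. Fitted apart, its log2 fold change was -0.55 in monocytes and 0.63 in macrophages, and in the joint fit of both cell types the difference was -1.25 (SE 0.15, edgeR adjusted p = 0.00211, and 7.86e-14 with the block). In monocytes alone, leaving out the Csf1rfl/fl tumor of run 2 gave 0.021 and leaving out that of run 1 -0.97. A Cxcl9 UMI was found in 12.7%, 18.5%, 12.7% and 16.4% of the monocytes. Gzmc and Xcl1 differed by 6.84 and 6.25 on the log2 scale, on 8 to 184 and 23 to 116 UMIs per tumor in monocytes. Without the Lyve1CreCsf1rfl/fl tumor of run 2, 0 genes passed the interaction in edgeR, with 573 at an unadjusted p under 0.05, and without that of run 1 31 did.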

How the data were processed

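CD45+ cells of 4 tumors were captured with the Chromium Single Cell 3' v2 kit. The authors aligned reads to mm10 with Cell Ranger 6.0.1 and processed cells in Seurat. The deposited raw table holds UMI counts of 32285 genes in 53361 barcodes, which were used for all levels and tests. The deposited normalized table holds SCTransform-corrected whole numbers, entered here as a score without a unit, and served only to learn which 28429 barcodes the authors kept. Per the methods, these were singlets with under 5% mitochondrial reads, without clusters specific to the Lyve1CreCsf1rfl/fl tumor of run 2. The higher hashtag set the tumor of a cell, and 11 cells with equal hashtags were left out. Cell gates were rebuilt from UMIs, since no annotation was used. T cells had at least 2 UMIs of Cd3d, Cd3e and Cd3g together. Per 10000 UMIs, they also had fewer than 20 of Lyz2, fewer than 20 of C1q and fewer than 300 of S100a8 and S100a9. Neutrophils had at least 300 of S100a8 and S100a9 per 10000 and no UMI of Siglech or of Cd3d, Cd3e or Cd3g.

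UMIs of the monocytes were summed per tumor and tested with edgeR 4.0.16 (quasi-likelihood, TMM, filterByExpr, Benjamini-Hochberg at 0.05) in R 4.3.3. In counts simulated for the 9251 genes, 200 genes, drawn only from those above a minimum level, were given a log2 change of 2. The fit without the block called 100% of them and made 17 false calls. Neither the fit with the block nor smaller changes, such as that of Ccl4 (-0.57 with the block), were simulated, nor were changes of genes under that level. The simulation therefore cannot show how well the calls with the block are recovered or how many of them are false. Each run held 1 tumor of each genotype, so the run pairs the tumors. Tumors of a run deviated together from their genotype means (correlation 0.459 over 9251 genes, 0.789 over the 1428 genes with a level of at least 1 per 10000), and the common dispersion fell from 0.0369 to 0.00867 with the run as a block. Without the block, p-values measure the spread between 2 mice per genotype. With it, they measure how far the genotype difference varied between the 2 runs, on 1 residual degree of freedom and a spread shared across genes. Levels are UMIs per 10000 of the summed UMIs. Ratios within runs used a pseudocount of 0.05 per 10000. Doublets were called with Scrublet in scanpy 1.11.5 at an expected rate of 0.2.

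The members and the 15 gene lists were chosen with earlier results of these data known, so an excess of a list over all genes is no independent support. Named genes were the marker genes of the label, up to 6 most abundant members of each list and members that passed, the 25 leading genes, genes that passed the interaction, Csf1r, Lyve1, Folr2 and the genes of the rule. Genes called with the block and those of the splits were chosen after their values were seen. Some genes that this rule names are not reported here. Alternatives were the run as a block, DESeq2 1.42.0, other scaling, no filter on low counts, other cells and thresholds, thinning to 4000 UMIs and leaving out each tumor.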

Additional observations from a re-analysis of the deposited data

Results flagged for a closer look

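The difference between genotypes was unlike in monocytes and in macrophages with C1q, by a test of the interaction, for 3 genes. Gzmc had an interaction of 6.84 on the log2 scale (SE 0.80, edgeR adjusted p = 0.00211), with 0.0180, 0.0512, 0.775 and 0.121 UMIs per 10000 in monocytes and 0.399, 0.136, 0.0430 and 0.0234 in macrophages. Xcl1 had an interaction of 6.25 (SE 0.84, edgeR adjusted p = 0.00608), with 0.0838, 0.312, 0.0143 and 0 in macrophages. Most Gzmc UMIs of monocytes lay in the Lyve1CreCsf1rfl/fl tumor of run 1 (184 of 8, 20, 184 and 26) and most Xcl1 UMIs in that of run 2 (116 of 23, 36, 32 and 116). Without doublets, Gzmc was at 0.0213, 0.0421, 0.0149 and 0.0209 in monocytes. Cxcl9 had an interaction of -1.25 (SE 0.15, edgeR adjusted p = 0.00211), lower in the Lyve1CreCsf1rfl/fl monocytes and higher in the Lyve1CreCsf1rfl/fl macrophages of both runs. Its change in monocytes was -0.55, and 0.021 without the Csf1rfl/fl tumor of run 2.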

How the results depend on the processing

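Without the run as a block, edgeR called 0 genes in either direction. With the replicate block, 5 genes were higher and 10 lower, and Csf1r passed at -0.70. Alternatives that combine the block with other cells, scaling, filter or tool were chosen after seeing the data. They called 24 higher and 42 lower with a hashtag ratio of at least 3 (Csf1r -0.71), 0 and 7 without doublets, 1 and 14 without cells with an NK cell marker UMI (Csf1r -0.70), 7 and 13 without cells with a C1q UMI (Csf1r -0.73), 4 and 9 with RLE scaling (Csf1r -0.70), 29 and 46 of 15717 genes without a filter (Csf1r -0.71), and 1 and 2 with DESeq2. Leaving out each tumor in turn gave 1 to 25 genes higher, 5 to 14 lower and -0.94 to -0.48 for Csf1r. The lone tumor of a genotype is then assumed to vary like the others. The interaction gave 81 genes with the replicate block, 10 with RLE scaling, 62 without a filter, 11 with a hashtag ratio of at least 3, 15 without doublets and 0 to 31 without 1 tumor.

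Some directions turned. The log2 ratio of the monocyte share was 0.147 among mononuclear phagocytes, against a negative value among all analysed cells. The difference in the share with a Chil3 UMI ranged from -1.43 to 10.1 percentage points without 1 tumor. Without doublets, Xcl1 was at -0.88 (-0.89 with the block), Gzma at -1.22 (-1.23) and Gzmb at -1.11 (-1.11), and without NK cell marker UMIs Xcl1 was at -0.0119 with the block. Without 1 tumor, the ranges were -6.06 to 0.67 for Hbb-bs, -0.43 to 1.04 for Fn1, -0.49 to 0.41 for Vcan, -0.32 to 0.53 for Ccr2 and -0.97 to 0.0212 for Cxcl9. The cause of the other changes was not tested. Of 440 alternatives for 23 named genes, 315 kept their direction and their side of the threshold, 110 newly passed it and 15 changed direction. Of 195 alternatives for the medians of 15 lists, 16 changed sign. With 2 tumors per genotype, no exact permutation test could pass 0.05, and genes with few UMIs rest on few cells.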
